A study of Mus musculus with 16 samples.

Results

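The expression of 10 genes tied to the integrated stress response, Nupr1, Stc2, Atf4, Ddit3, Trib3, Chac1, Asns, Sesn2, Hspa5 and Xbp1, was followed through 4 groups of mouse intervertebral disc tissue. They are 10 of the 19505 genes that carry a symbol on the arrays, and each is represented by its probe set with the highest mean over 16 arrays. Nupr1 and Stc2 were selected on their values after Sox9 loss in the annulus fibrosus, where Nupr1 was among the genes called higher and Stc2 among those called lower. The other 8 were listed for their place in the same pathways, whatever their values. All 10 genes were found, and Ddit3 alone had a second probe set.

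RNA came from the nucleus pulposus (NP), the gel-like core of the disc, and from the annulus fibrosus (AF), the fibrous ring around it, of 8 female mice aged 3 to 4 months. The 4 conditional knockout mice (cKO) had the genotype AcanCreERT2 Sox9fl/fl: both Sox9 alleles are flanked by loxP sites, and a Cre that tamoxifen activates is expressed from Acan, which encodes the cartilage proteoglycan aggrecan. The 4 control mice (CTR) were Sox9fl/fl, so that they carry the same floxed alleles with no Cre named. The cKO mice received tamoxifen on 2 consecutive days and discs were collected 5 days from the first dose. For CTR mice no injection is stated or denied, and drug and genotype cannot be told apart. Lumbar and tail discs of an animal were pooled, and each animal gave 1 NP and 1 AF array, so that the groups NP cKO, NP CTR, AF cKO and AF CTR hold 4 arrays each. All values are log2 signals of Affymetrix arrays, errors are SDs with n = 4 unless SE is written, and the small number of arrays limits the precision.

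The integrated stress response starts when kinases that sense unfolded protein, amino acid shortage, viral RNA or lack of heme phosphorylate the translation factor eIF2. General protein synthesis then slows while translation of ATF4 goes up, and ATF4 switches on genes for amino acid supply, redox balance and, through the factor CHOP (gene Ddit3), cell death. The unfolded protein response of the endoplasmic reticulum shares this branch and adds the IRE1 arm, which splices Xbp1 mRNA, and the ATF6 arm, both of which raise chaperones such as BiP (gene Hspa5). Because ATF4 is controlled largely at translation and XBP1 by splicing, the abundance of their mRNAs is only an indirect reading of either arm. Disc cells make much secreted matrix, and so use the folding machinery of the endoplasmic reticulum heavily.

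The targeted gene was low in every cKO array: Sox9 averaged 9.75 ± 0.25 in NP cKO and 16.27 ± 0.36 in NP CTR, and 12.24 ± 0.65 in AF cKO and 16.92 ± 0.51 in AF CTR. The position of its probes relative to the excised part of the gene is not stated. A list of 8 NP markers had mean signals of 14.11 to 14.40 in NP arrays and 12.63 to 13.61 in AF arrays, and a list of 8 AF and tendon markers 8.12 to 8.70 in NP arrays and 11.54 to 13.08 in AF arrays. For NP against AF, limma called 6 of the 8 NP markers higher in cKO and 5 in CTR, and all 8 AF and tendon markers lower in cKO and 7 in CTR. The NP list was not uniform: in CTR, Noto (-0.66) and Shh (-0.25) were lower in the NP without passing, and Car3 differed by 0.03 in cKO and 0.02 in CTR. AF arrays also carry NP marker signal. AF arrays differ among themselves in other cell types. A list of 12 skeletal muscle markers averaged 7.29, 10.76, 6.75 and 9.98 in AF cKO replicates 1 to 4, against 6.63 to 7.60 in AF CTR. A list of 9 neutrophil markers averaged 12.34, 12.11, 13.45 and 9.52 in AF cKO, against 11.77, 7.66, 6.05 and 7.14 in AF CTR. A list of 8 osteoclast markers was highest in AF cKO replicate 3 (10.31) and AF CTR replicate 1 (9.18), and 5.63 to 7.62 in the other 6 AF arrays. In NP arrays the muscle list stayed between 5.61 and 6.02 and the neutrophil list between 5.54 and 8.07, with cKO and CTR overlapping in both. The part of these cell types in the AF results was not tested.

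Negative control probe sets set the scale of background: their median per array lay between 6.14 and 6.59, and their 95th percentile between 9.74 and 10.78. Nupr1, Hspa5 and Xbp1 exceeded that 95th percentile on all 16 arrays and Atf4 on 15. Stc2, Ddit3 and Asns exceeded the negative control median on all 16 arrays but the 95th percentile on only 1, 2 and 3 of them. Trib3 exceeded the median on 12 arrays, and Chac1 and Sesn2 on 2 each, so that values of these 3 genes are close to or under background and their differences are weak evidence of a change in transcript.

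The promoters of 4 members are shown for the binding letters that the pathway's own factors are known to use. The C/EBP-ATF response element, searched as TGATGNAA on both strands, is a site of ATF4 with a C/EBP partner, and the endoplasmic reticulum stress response element, searched as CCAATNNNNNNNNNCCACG on both strands, is a site of ATF6 with NF-Y. Over the 250 bases before the start of 32851 RefSeq genes, the first was present in 3.45% of windows and the second in 0.113%. Of the 10 members, Nupr1, Chac1 and Asns held the first and Hspa5 the second, and the windows of the other 6 held neither. A match of letters is a description of the sequence and not of binding. The windows are those of RefSeq for GRCm38.p6, written 5′ to 3′ on the gene's strand, with the match in capitals. Nupr1 lies on the minus strand with its window at chr7:126625471-126625720, Stc2 on the minus strand at chr11:31370062-31370311, Chac1 on the plus strand at chr2:119350992-119351241 and Hspa5 on the plus strand at chr2:34771840-34772089. In Nupr1 the match lies 110 to 103 bases before the start on the opposite strand, in Chac1 193 to 186 bases before it on the opposite strand, and in Hspa5 65 to 47 bases before it on the gene's strand. Asns, not printed, has its match 23 to 16 bases before the start on the gene's strand.
Nupr1: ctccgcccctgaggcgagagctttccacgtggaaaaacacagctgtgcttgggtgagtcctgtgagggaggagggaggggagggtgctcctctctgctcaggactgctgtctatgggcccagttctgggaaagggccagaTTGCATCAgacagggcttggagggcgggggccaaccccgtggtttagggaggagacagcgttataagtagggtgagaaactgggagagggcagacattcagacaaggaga
Chac1: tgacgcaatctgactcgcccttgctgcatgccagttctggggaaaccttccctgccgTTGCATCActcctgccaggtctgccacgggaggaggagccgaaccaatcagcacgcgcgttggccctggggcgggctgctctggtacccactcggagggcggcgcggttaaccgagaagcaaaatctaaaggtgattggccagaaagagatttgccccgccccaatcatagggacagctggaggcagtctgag
Hspa5: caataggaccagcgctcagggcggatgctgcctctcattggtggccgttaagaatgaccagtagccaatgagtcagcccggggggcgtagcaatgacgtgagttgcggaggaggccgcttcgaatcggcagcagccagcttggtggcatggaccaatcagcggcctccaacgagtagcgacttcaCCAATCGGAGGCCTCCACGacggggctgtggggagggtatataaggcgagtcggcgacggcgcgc
Stc2: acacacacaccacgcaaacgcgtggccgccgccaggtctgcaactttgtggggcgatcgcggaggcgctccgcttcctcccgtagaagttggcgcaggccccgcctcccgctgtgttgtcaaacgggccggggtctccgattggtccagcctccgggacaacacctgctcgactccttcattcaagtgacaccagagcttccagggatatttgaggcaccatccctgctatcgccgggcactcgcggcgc
Nupr1 and Chac1 hold the same 8 letters, TTGCATCA, and across the 16 arrays the signals of these genes correlated with r = 0.06. Chac1 exceeded the negative control median on only 2 arrays, so that this r says little about whether both transcripts run together. Stc2, whose window is rich in CG pairs (24, against 6 in Nupr1), holds neither motif within this stretch.

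Nupr1 encodes a small stress-induced nuclear protein that binds chromatin and is a known target of ATF4. In the NP, where it was not chosen, it was higher in every cKO array than in any CTR array. Its signal was 13.17, 13.72, 13.44 and 13.84 in NP cKO replicates 1 to 4, against 12.48, 12.68, 13.11 and 12.81 in NP CTR replicates 1 to 4. The means were 13.54 ± 0.30 in NP cKO and 12.77 ± 0.26 in NP CTR, a log2 difference of 0.77 (SE 0.25, 95% interval 0.24 to 1.31), or 1.71-fold. That difference had an unadjusted p of 0.00698 and ranked 219 of 22206 probe sets, but it did not pass after adjustment over all of them (limma with Benjamini-Hochberg adjustment, adjusted p = 0.695). Over 28 alternative settings the difference stayed between 0.67 and 0.90, and the adjusted p between 0.272 and 1.0. In bulk tissue a difference of this kind cannot tell more cells of a type from more RNA per cell.

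In the AF, whose values chose the gene, Nupr1 signal was 13.57, 14.30, 13.95 and 13.65 in cKO replicates 1 to 4, against 12.62, 12.86, 12.62 and 11.68 in CTR replicates 1 to 4. The means were 13.87 ± 0.33 in AF cKO and 12.45 ± 0.52 in AF CTR, a log2 difference of 1.42 (SE 0.25), or 2.68-fold, and this placed the gene 19th by p with an adjusted p of 0.0269. It was 1 of 3 probe sets called higher in AF cKO, 0.0135% of all. The difference was 1.31 without AF cKO replicates 2 and 4, which carry the muscle markers, and 1.45 without AF cKO replicate 3 and AF CTR replicate 1, which carry the osteoclast markers. Leaving out single arrays gave 1.17 to 1.56. Those choices moved the selecting adjusted p above its threshold in some cases, for example to 0.152 without AF cKO replicate 2, to 0.0754 without AF CTR replicate 4 and to 0.310 with the 8 AF arrays fitted alone.

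Ordered by mean, Nupr1 was highest in AF cKO, then NP cKO, NP CTR and AF CTR. AF cKO overlapped NP cKO, and NP CTR overlapped AF CTR. Over both tissues the cKO arrays ran from 13.17 to 14.30 and the CTR arrays from 11.68 to 13.11. These ranges are a description, because the AF arrays in them chose the gene. They come closest in the NP, where the lowest cKO array was at 13.17 and the highest CTR array at 13.11. The difference of both genotype effects, AF minus NP, was 0.65 with a 95% interval of -0.10 to 1.41, given as a description because it contains the selecting values. The muscle and neutrophil lists also averaged higher in AF cKO than in AF CTR, and their part in the Nupr1 values was not tested.

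**Figure D1:**
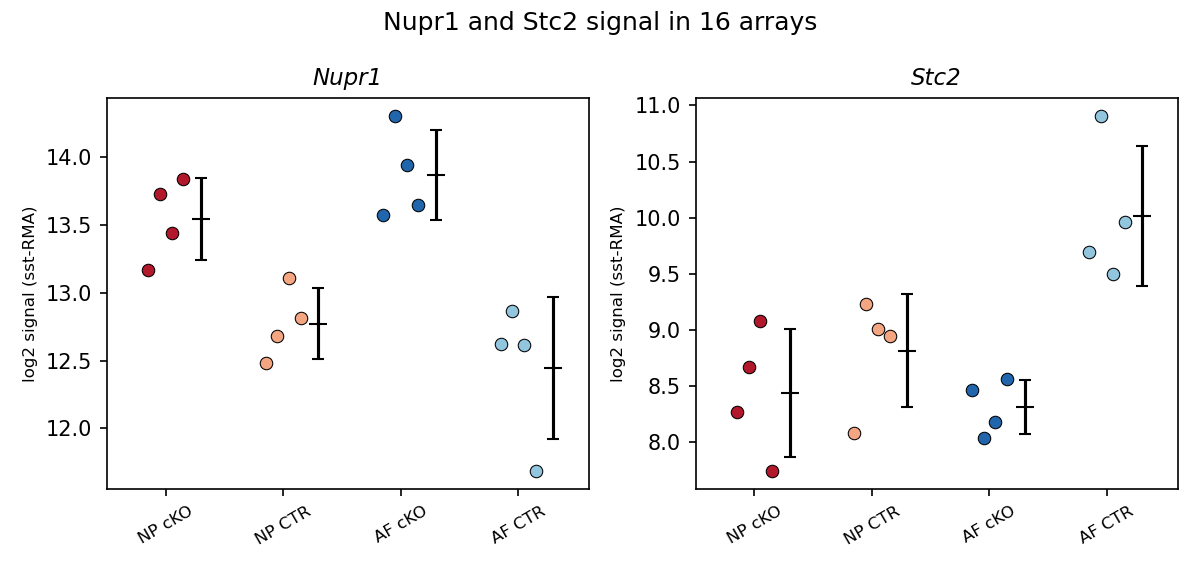
Log2 signal of Nupr1 (left) and Stc2 (right) in each of the 16 arrays by group, with points for arrays and bars for the mean and SD of 4 arrays. Nupr1 lies at 13.17 to 14.30 in the 8 cKO arrays and 11.68 to 13.11 in the 8 CTR arrays, while Stc2 stands apart in AF CTR alone (9.5 to 10.91). The AF arrays chose both genes, so these separations are a description.

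Stc2 encodes stanniocalcin 2, a secreted glycoprotein that blocks the pappalysin proteases of the insulin-like growth factor system and is induced by endoplasmic reticulum stress through ATF4. In the AF, whose values chose it, its signal was 8.47, 8.04, 8.18 and 8.56 in cKO replicates 1 to 4, against 9.69, 10.91, 9.5 and 9.97 in CTR replicates 1 to 4. All 4 cKO arrays lay below all 4 CTR arrays. The means were 8.31 ± 0.24 in AF cKO and 10.02 ± 0.62 in AF CTR, a log2 difference of -1.70 (SE 0.32), or 3.26-fold lower, which placed the gene 22nd by p with an adjusted p of 0.0472. It was 1 of 19 probe sets called lower in AF cKO, 0.0856% of all. The difference was -1.69 without AF cKO replicates 2 and 4, -1.77 without AF cKO replicate 3 and AF CTR replicate 1, and -1.88 to -1.41 on leaving out single arrays. As the last gene inside the threshold, Stc2 left it under many alternatives, with an adjusted p in limma of up to 0.207 (without AF cKO replicate 2). These included arrays centred on their medians (0.0704), weights per array (0.0671) and the 8 AF arrays fitted alone (0.185). Leaving out some NP arrays, such as NP cKO replicate 1 (0.072), did so as well.

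In the NP, where Stc2 was not chosen, its signal was 8.27, 8.67, 9.08 and 7.74 in cKO replicates 1 to 4, against 8.08, 9.23, 9.01 and 8.95 in CTR replicates 1 to 4. These groups overlapped through most of their range. The means were 8.44 ± 0.57 in NP cKO and 8.82 ± 0.51 in NP CTR, a log2 difference of -0.38 (SE 0.32, 95% interval -1.06 to 0.30) that did not pass in limma (unadjusted p = 0.257, adjusted p = 1.0). Ordered by mean, AF CTR was highest, followed by NP CTR, NP cKO and AF cKO. The last 3 groups overlap one another, and the lowest AF CTR array (9.5) lies above the highest array of any other group (9.23). The difference of both genotype effects, AF minus NP, was -1.33 with a 95% interval of -2.28 to -0.37, a description for the reason given for Nupr1. A list of 8 cartilage markers also differed in AF cKO, at 11.25 to 12.64 against 12.34 to 16.12 in AF CTR, with 7 of 8 genes lower and a median of -1.85. In the NP the same list was at 8.22 to 9.27 in cKO and 8.81 to 9.52 in CTR, with a median of -0.67. The part of this cartilage signal in the Stc2 values was not tested.

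Around the threshold that chose both genes, Tubb2b and Ucma stood beside Nupr1 at the same adjusted p of 0.0269, with log2 differences of -1.82 and -3.48. Dmtn stood next to Stc2 inside the threshold (1.19, adjusted p = 0.0384), and Fxyd3 just outside it (-1.76, adjusted p = 0.0537).

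The genes whose signals ran most like these 2 over the 16 arrays were ranked by Pearson correlation among 18540 named genes, as a description, since the points share groups, animals and arrays. An order of groups like that of Nupr1 or Stc2 in the genes named here follows from that ranking. For Nupr1 they were Ackr3, an atypical chemokine receptor (r = 0.89), Adam10, a sheddase (0.85), Tpm1, a tropomyosin (0.84), Tppp3, a tubulin-binding protein (0.84), and Htra2, a mitochondrial protease (0.82). Ackr3 averaged 7.44 in NP cKO and 6.53 in NP CTR, and 7.50 in AF cKO and 6.55 in AF CTR, the same order of genotypes as Nupr1 in both tissues. For Stc2 they were Golm2, a Golgi membrane protein (0.88), Fgfrl1, a decoy receptor for fibroblast growth factors (0.80), Slc35a3, a nucleotide sugar transporter of the Golgi (0.79), Chadl, a matrix protein (0.78), and Sfrp5, a secreted Wnt inhibitor (0.78). By Spearman rank correlation with Stc2 these 5 genes had 0.75, 0.55, 0.72, 0.68 and 0.49, in that order. Fgfrl1 and Sfrp5 were also called lower in AF cKO, in the contrast that chose Stc2. Golm2 averaged 14.07 in NP cKO and 14.26 in NP CTR, and 14.20 in AF cKO and 14.90 in AF CTR. It was highest in AF CTR, as Stc2 was. Among the members themselves, Nupr1 and Stc2 correlated with r = -0.63. The sign of that value follows in part from the choice, because the AF arrays chose Nupr1 as higher and Stc2 as lower in cKO. Nupr1 and Atf4 correlated with r = 0.21, Stc2 and Atf4 with r = -0.06, and Hspa5 and Xbp1 with r = 0.71.

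Atf4, the transcription factor at the centre of the response, did not separate cKO from CTR in either tissue. In the NP its signal was 10.61, 10.99, 10.73 and 11.32 in cKO replicates 1 to 4, against 11.23, 10.26, 10.84 and 11.28 in the 4 CTR arrays. AF signals were 11.69, 11.02, 12.04 and 11.79 in cKO, against 11.72, 11.45, 10.86 and 11.19 in CTR. The ranges overlap in both tissues. The log2 difference was 0.01 (95% interval -0.56 to 0.58) in the NP and 0.33 (95% interval -0.24 to 0.90) in the AF, and neither passed in limma (adjusted p = 1.0 and 0.687).

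Ddit3 encodes CHOP, the factor that turns a lasting stress response towards cell death. In the NP its signal was 10.32, 10.52, 10.24 and 9.27 in cKO replicates 1 to 4, against 9.41, 9.67, 10.58 and 9.77 in the 4 CTR arrays. AF signals were 9.66, 9.55, 8.52 and 9.24 in cKO, against 8.73, 8.98, 8.88 and 9.22 in CTR. In each tissue 3 of 4 cKO arrays lay above the CTR mean, yet the ranges overlap. The log2 difference was 0.23 (95% interval -0.41 to 0.86) in the NP and 0.29 (95% interval -0.35 to 0.92) in the AF, with adjusted p of 1.0 and 0.761 in limma. Its second probe set, dimmer by mean, differed by 0.55 in the NP (95% interval 0.08 to 1.01, unadjusted p = 0.0244, adjusted p = 0.943) and by 0.32 in the AF (adjusted p = 0.625).

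Trib3, Chac1 and Sesn2 are outputs of ATF4 and CHOP: a pseudokinase that damps both factors, an enzyme that degrades glutathione, and a sensor of leucine that restrains mTORC1. Trib3 averaged 6.62 ± 0.19 in NP cKO and 6.77 ± 0.11 in NP CTR, and 6.24 ± 0.08 in AF cKO and 6.45 ± 0.28 in AF CTR. Chac1 averaged 4.64 ± 0.24 in NP cKO and 4.54 ± 0.25 in NP CTR, and 6.19 ± 0.28 in AF cKO and 6.07 ± 0.29 in AF CTR. Sesn2 averaged 5.93 ± 0.32 in NP cKO and 6.33 ± 0.39 in NP CTR, and 5.84 ± 0.41 in AF cKO and 5.53 ± 0.47 in AF CTR. All 3 genes lay near or under background in both genotypes, cKO and CTR overlapped within each tissue, and the log2 differences ran from -0.40 (Sesn2 in the NP) to 0.31 (Sesn2 in the AF).

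Asns, asparagine synthetase, is the amino acid enzyme most used as a reading of ATF4, and its groups overlapped in both tissues. Its signal was 10.11, 9.53, 9.19 and 9.58 in NP cKO replicates 1 to 4, against 9.42, 9.77, 9.98 and 9.15 in NP CTR. AF signals were 9.64, 10.35, 10.46 and 9.69 in cKO, against 10.01, 9.61, 10.48 and 10.38 in CTR. The log2 difference was 0.02 (95% interval -0.54 to 0.58) in the NP and -0.08 (95% interval -0.64 to 0.47) in the AF, with adjusted p of 1.0 and 0.936 in limma.

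Hspa5 encodes BiP, the chaperone that both holds unfolded protein and keeps the sensors of the unfolded protein response silent. In the NP its signal was 14.66, 15.23, 15.08 and 15.43 in cKO replicates 1 to 4, against 14.65, 14.82, 15.15 and 14.64 in CTR. AF signals were 16.51, 16.66, 16.71 and 15.64 in cKO, against 16.93, 16.59, 15.94 and 15.81 in CTR. Genotypes overlap in both tissues, while every AF array lies above every NP array. The genotype difference was 0.28 (95% interval -0.30 to 0.87) in the NP and 0.06 (95% interval -0.52 to 0.65) in the AF.

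Xbp1 encodes the transcription factor of the IRE1 arm, and no source used here states whether its probe set separates the spliced form. Its signal was 11.37, 12.89, 12.25 and 12.77 in NP cKO replicates 1 to 4, against 12.69, 12.41, 13.33 and 12.81 in NP CTR. AF signals were 13.04, 13.36, 14.04 and 13.06 in cKO, against 13.28, 13.89, 13.17 and 12.41 in CTR. NP cKO replicate 1 was the lowest of all 16 arrays. The genotype difference was -0.49 (95% interval -1.21 to 0.24) in the NP and 0.19 (95% interval -0.54 to 0.91) in the AF, and neither passed in limma (adjusted p = 1.0 and 0.879).

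**Figure D2:**
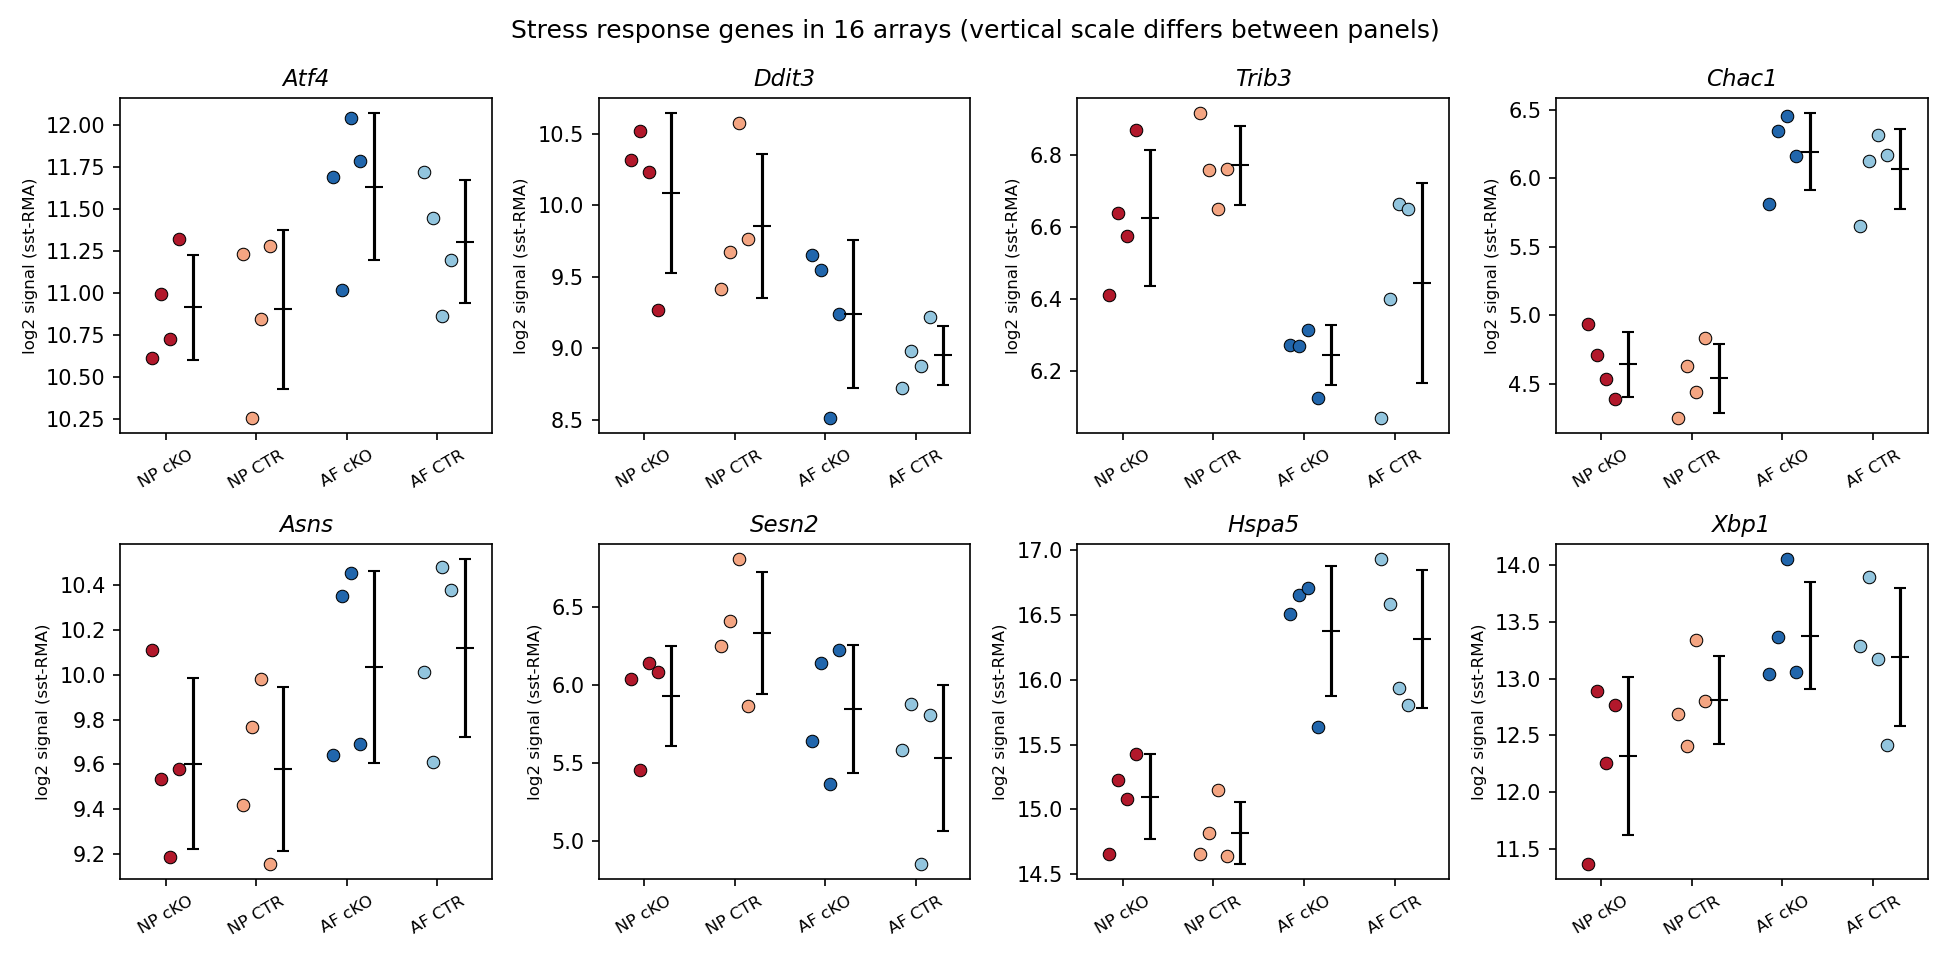
Log2 signal of the 8 other members in each of the 16 arrays by group, with points for arrays and bars for the mean and SD of 4 arrays. Within each tissue the cKO and CTR points overlap for all 8 genes, while Hspa5 and Chac1 split by tissue.

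Counted over the members, 0 of 10 passed an adjusted p under 0.05 for cKO against CTR in the NP, where limma called 0.122% of all probe sets. At an unadjusted p under 0.05, 1 of 10 (Nupr1) passed, against 4.58% of all, and 1 of 10 had groups that do not overlap, against 2.93% of all. In the AF, 0 of the 8 members that were not chosen there passed, where 0.0991% of all probe sets were called. At an unadjusted p under 0.05 again 0 of 8 passed, against 10.6% of all probe sets, and 0 of 8 had groups that do not overlap, against 4.33%. For the difference of both effects, 0 of 8 passed at an adjusted p under 0.05, where 0% of all probe sets did, and 0 of 8 at an unadjusted p under 0.05, where 6.74% did. The median log2 difference of the 8 was 0.02 in the NP, where that over all probe sets was 0.00. In the AF it was 0.16, where that over all probe sets was -0.03. Over the alternatives the AF median of all probe sets ran from -0.042 to 0.053.

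**Figure D3:**
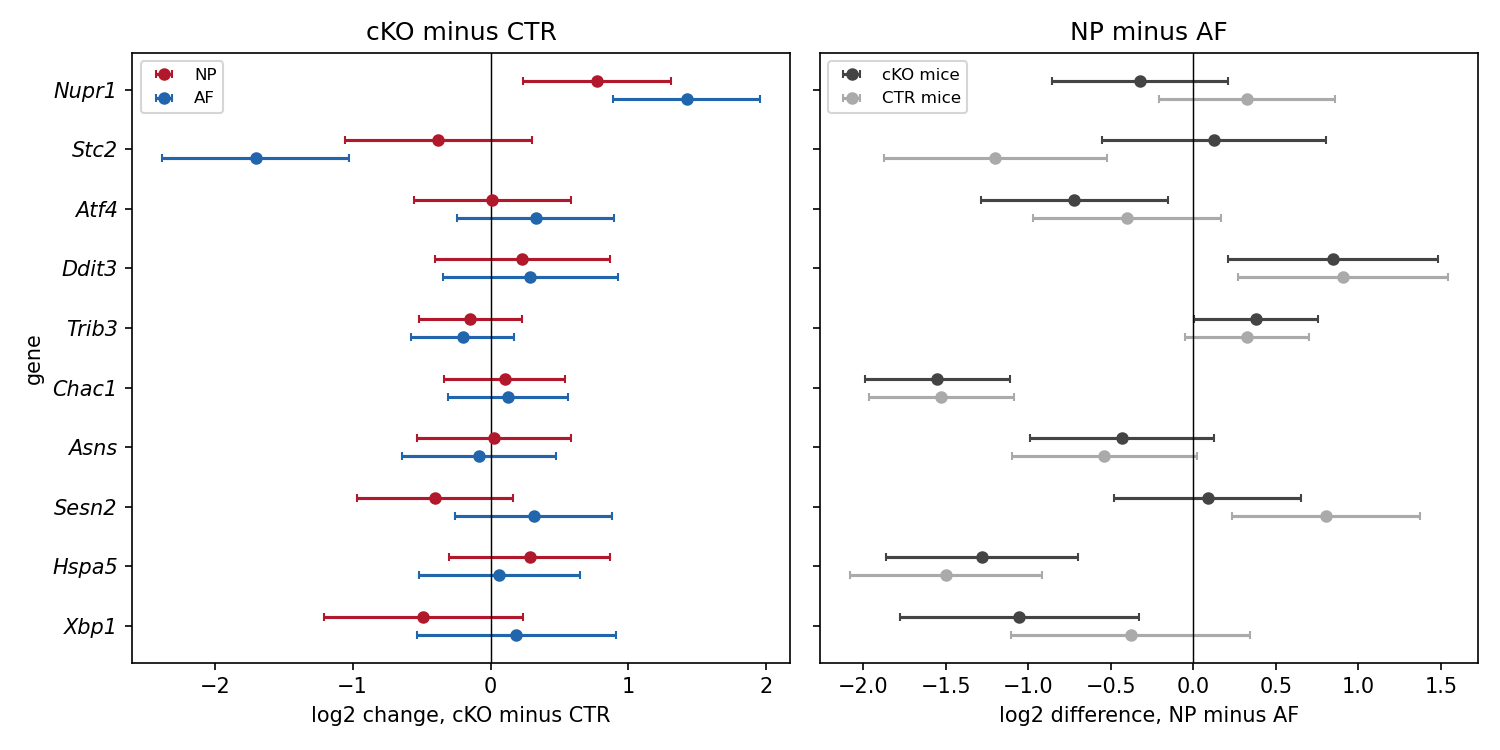
Log2 differences for each member as points with 95% intervals of the limma fit, and a line at 0. The left panel shows cKO minus CTR in the NP and in the AF, and the right panel NP minus AF in cKO and in CTR mice. At left, the intervals of Nupr1 lie above 0 in both tissues and that of Stc2 lies below 0 in the AF only, where both genes were chosen. The intervals of the other 8 all cross 0 there. At right, the intervals of Chac1 and Hspa5 lie below 0 and those of Ddit3 above 0 in both genotypes. Every other gene has an interval that crosses 0 in cKO, CTR or both.

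The pathway beyond the members was read from 9 lists that hold 104 further measured genes: the eIF2 kinases and subunits, partners of ATF4, amino acid enzymes, amino acid transporters, tRNA synthetases, other stress effectors, sensors of the unfolded protein response, chaperones, and the degradation machinery of the endoplasmic reticulum. In the NP, 55 of the 104 were higher and 49 lower in cKO, with a median of 0.02, and 0 passed in limma at an adjusted p under 0.05. At an unadjusted p under 0.05 there were 5 (1 higher and 4 lower), or 4.81% of the list, against 4.58% of all probe sets, which is a share near the background. The higher one was Ddit4, an inhibitor of mTORC1 also known as REDD1, with 12.44, 11.29, 11.43 and 9.33 in NP cKO, against 9.52, 9.82, 10.73 and 9.0 in NP CTR (log2 difference 1.35, SE 0.56, adjusted p = 0.961). Among those lower, Sesn3, a sestrin, had 16.06, 14.30, 17.00 and 16.42 in NP cKO, against 17.47, 17.64, 17.70 and 17.74 in NP CTR, with no overlap (-1.69, SE 0.51, adjusted p = 0.503). Creb3l2, a membrane-bound transcription factor of the secretory pathway that SOX9 is known to induce in chondrocytes, had 14.09, 14.64, 14.98 and 14.81 in NP cKO, against 15.79, 15.61, 15.76 and 15.41 in NP CTR, again with no overlap (-1.01, SE 0.25, adjusted p = 0.271). The other 2 were Mthfd2, a mitochondrial enzyme of folate metabolism (-0.56, adjusted p = 0.711, at background), and the amino acid transporter Slc38a2 (-0.70, adjusted p = 1.0).

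In the AF, 76 of the 104 genes were higher and 28 lower in cKO, with a median of 0.16. Over all probe sets 10305 were higher and 11901 lower, with a median of -0.03. That background depends on dim probe sets: with the filter on them, 6964 were higher and 5438 lower. Over the alternatives the median of all probe sets ran from -0.042 to 0.053, and that of the 104 genes from 0.087 to 0.22. Of the 104, 0 passed in limma at an adjusted p under 0.05. At an unadjusted p under 0.05 there were 6 (5 higher and 1 lower), or 5.77% of the list, against 10.6% of all probe sets. Slc1a5, a glutamine transporter, had 9.17 to 10.27 in AF cKO, against 8.48 to 9.15 in AF CTR, with no overlap (1.05, SE 0.33, adjusted p = 0.268). Edem2, a mannosidase-like factor that marks misfolded glycoproteins, had 9.26, 9.70, 9.86 and 9.59 in AF cKO, against 8.94, 9.08, 9.14 and 8.70 in AF CTR, also with no overlap (0.64, SE 0.24, adjusted p = 0.364). Its relative Edem1 differed by 0.84 (adjusted p = 0.432), the autophagy gene Map1lc3b by 0.59 (adjusted p = 0.386) and the tyrosyl-tRNA synthetase Yars by 0.54 (adjusted p = 0.467). Creb3l2 was lower here too, by a log2 difference of -0.73 (SE 0.25, adjusted p = 0.325), with 13.15, 13.66, 13.06 and 14.17 in AF cKO, against 13.89, 14.25, 14.67 and 14.17 in AF CTR. By list, 11 of 13 chaperones and folding enzymes were higher in AF cKO (median 0.20), as were 10 of 10 degradation genes (median 0.15) and 10 of 11 tRNA synthetases (median 0.17). These splits were not stable: over the alternatives 7 to 13 chaperones were higher (7 without AF cKO replicate 3), with medians of 0.026 to 0.43, 6 to 10 degradation genes (6 without AF CTR replicate 4), with medians of 0.045 to 0.34, and 7 to 11 tRNA synthetases (7 without AF CTR replicate 4), with medians of 0.039 to 0.29. Marker lists of other cell types were higher in AF cKO as well, with 12 of 12 muscle genes (median 1.97), 9 of 9 neutrophil genes (median 3.17) and 7 of 9 macrophage genes (median 0.60), and their part in these shifts was not tested. Without AF cKO replicate 3 the split of the 104 genes was 65 higher and 39 lower, with a median of 0.09, and without AF CTR replicate 4 it was 67 and 37.

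Differences between the tissues were called more often than those between the genotypes. Over the 8 members that were not chosen in the AF, 4 passed for NP against AF in cKO (1 higher and 3 lower in the NP), where limma called 25.9% of all probe sets, 13.3% higher and 12.6% lower. In CTR 4 of 8 passed (2 higher and 2 lower in the NP), where 20.1% of all probe sets were called, 9.96% higher and 10.1% lower. Groups that do not overlap were found in 4 of 8 members in cKO, against 26.8% of all probe sets, and in 3 of 8 in CTR, against 22.6%. With 8 genes these shares rest on small counts, and they include calls of Chac1 in both genotypes and Sesn2 in CTR at or near background.

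Hspa5 fell in the NP relative to the AF in both genotypes. Its means were 15.10 ± 0.33 in NP cKO and 16.38 ± 0.50 in AF cKO (log2 difference -1.28, SE 0.28, adjusted p = 0.00283 in limma), and 14.82 ± 0.24 in NP CTR and 16.32 ± 0.53 in AF CTR (-1.50, SE 0.28, adjusted p = 8.2e-04). The call held under all 28 alternatives in each genotype. Chac1 was lower in the NP by -1.55 in cKO (SE 0.21, adjusted p = 4.5e-05) and by -1.53 in CTR (SE 0.21, adjusted p = 4.5e-05), and held its call in all 27 alternatives that kept it. All 8 NP values of Chac1 (4.25 to 4.94) lie under the negative control medians, and only 2 of its 8 AF values lie above theirs. Both sides of this contrast are thus mostly under background, and the calls are weak evidence of a difference in transcript.

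Xbp1 fell in the NP in cKO, with means of 12.32 ± 0.69 in NP cKO and 13.38 ± 0.47 in AF cKO (log2 difference -1.05, SE 0.35, adjusted p = 0.0312 in limma). In CTR the means were 12.81 ± 0.39 in the NP and 13.19 ± 0.61 in the AF (-0.38, SE 0.35, adjusted p = 0.479). The difference between these genotype patterns was not called (0.67 for AF effect minus NP effect, adjusted p = 0.777). Leaving out NP cKO replicate 1 ended the cKO call (-0.74, adjusted p = 0.123), as did leaving out NP cKO replicate 3 (adjusted p = 0.0649), AF cKO replicate 2 (adjusted p = 0.0618) or AF cKO replicate 3 (-0.83, adjusted p = 0.112).

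Ddit3 ran the other way, higher in the NP in both genotypes. Its means were 10.09 ± 0.56 in NP cKO and 9.24 ± 0.51 in AF cKO (log2 difference 0.85, SE 0.30, adjusted p = 0.0469 in limma), and 9.86 ± 0.50 in NP CTR and 8.95 ± 0.21 in AF CTR (0.91, SE 0.30, adjusted p = 0.0411). These calls sat at the threshold: 18 of 29 alternatives lost the call in cKO, with an adjusted p of up to 0.176, and 11 of 29 in CTR, with an adjusted p of up to 0.424. Its second probe set differed in the same direction by 0.50 in cKO and 0.27 in CTR and was called in neither. Sesn2 was called higher in the NP in CTR (0.80, SE 0.27, adjusted p = 0.0425) at signals near background, and 9 of 27 alternatives lost that call. Among the uncalled members, Atf4 differed by -0.72 in cKO (adjusted p = 0.0574) and -0.40 in CTR, Asns by -0.43 and -0.54, and Trib3 by 0.38 and 0.33, in that order of genotypes. Nupr1 differed by -0.32 in cKO and 0.33 in CTR, and Stc2 by 0.13 in cKO and -1.20 in CTR, given as a description since the AF arrays chose both.

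The chaperones of the endoplasmic reticulum followed Hspa5, their best known member. Of 13 measured chaperones and folding enzymes besides Hspa5, 12 were lower in the NP in each genotype, with a median of -0.99 in cKO and -0.86 in CTR, where the medians over all probe sets were 0.07 and 0.04. In limma 10 passed as lower in cKO (76.9% of the 13) and 9 in CTR (69.2%), and 0 passed as higher. Of all probe sets, 12.6% were called lower and 13.3% higher in cKO, and 10.1% lower and 9.96% higher in CTR. Sdf2l1, a partner of BiP, had 5.69 to 6.04 in NP cKO and 7.61 to 8.42 in AF cKO, and 5.42 to 5.70 in NP CTR and 7.32 to 7.96 in AF CTR (log2 differences -2.17 and -2.16, adjusted p = 8.2e-07 and 6.6e-07), with NP values at background. Pdia6, a disulfide isomerase, averaged 8.92 in NP cKO and 10.96 in AF cKO, and 8.79 in NP CTR and 10.45 in AF CTR, with no overlap in either genotype (-2.04 and -1.66, adjusted p = 0.00107 and 0.00512). Calreticulin (Calr), which folds glycoproteins, had 13.49 to 14.35 in NP cKO and 15.11 to 16.56 in AF cKO, and 13.86 to 15.19 in NP CTR and 15.02 to 16.22 in AF CTR (-1.95 and -1.10, adjusted p = 5.6e-04 and 0.0293). Hyou1 (-1.65 in cKO, -1.23 in CTR), Pdia3 (-1.32 and -0.86), Dnajb11 (-1.38 and -1.13) and Hsp90b1, known as GRP94 (-0.99 and -0.74), passed in both genotypes as well.

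The direction of the chaperones was steadier than their count of calls. Centring each array on its median moved the median of all probe sets in CTR to 0.16 and left 11 of 13 chaperones lower with a median of -0.73, but only 3 of them passed. In cKO the same step left 12 of 13 lower and 7 passing. Without AF cKO replicate 3 and AF CTR replicate 1, 4 passed in CTR and 7 in cKO. On leaving out single arrays the count in CTR went down to 3 (without NP CTR replicate 4 or AF CTR replicate 2) or 4 (without NP CTR replicate 1 or 2, or AF CTR replicate 1), while 11 or 12 of 13 stayed lower throughout. The tissues also differ in other cells. The cartilage list was at 8.22 to 9.52 in NP arrays and 11.25 to 16.12 in AF arrays, the endothelial list at 5.35 to 5.70 in NP arrays and 6.44 to 7.91 in AF arrays, and the macrophage list at 6.55 to 7.19 in NP arrays and 7.06 to 9.09 in AF arrays. The part of each cell type in the chaperone difference was not tested.

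**Figure D4:**
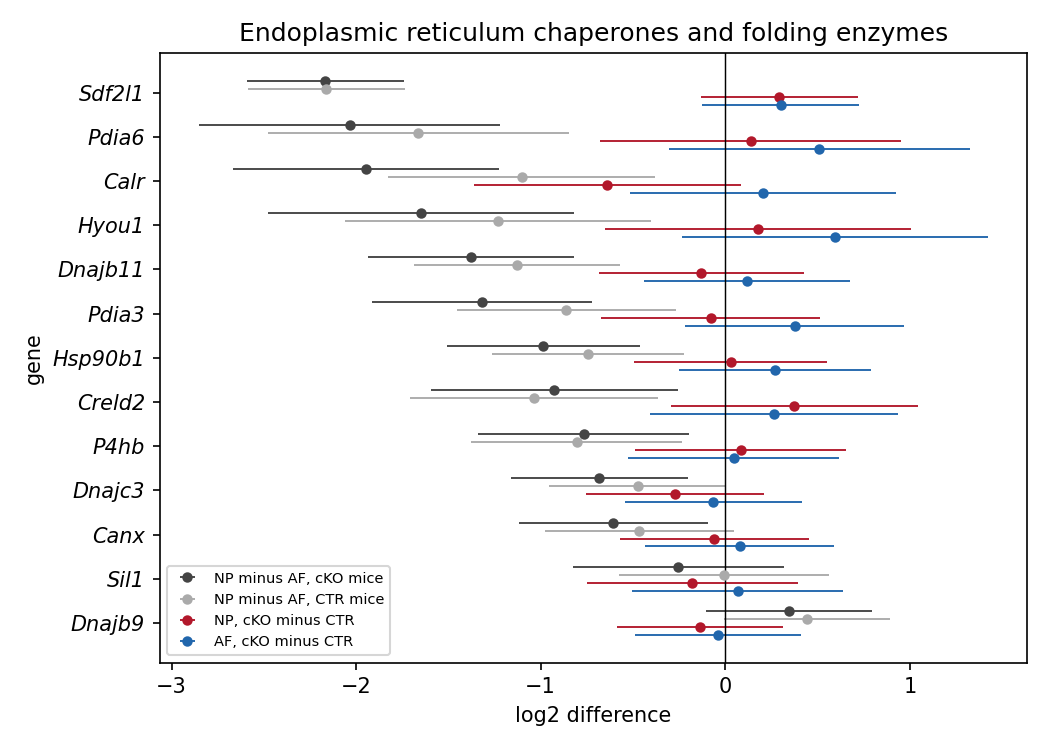
Log2 differences for 13 chaperones and folding enzymes other than Hspa5, as points with 95% intervals of the limma fit and a line at 0. Dark and light grey points show NP minus AF in cKO and in CTR mice. Red and blue points show cKO minus CTR in the NP and in the AF. For NP minus AF, 12 of the 13 genes lie below 0 in each genotype, with medians over the 13 of -0.99 in cKO and -0.86 in CTR.

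Over all 104 genes, 29 passed for NP against AF in cKO (5 higher and 24 lower in the NP) and 34 in CTR (12 higher and 22 lower). In cKO that is 27.9% of the list against 25.9% of all probe sets, with 4.81% higher against 13.3% and 23.1% lower against 12.6%. In CTR it is 32.7% against 20.1%, with 11.5% higher against 9.96% and 21.2% lower against 10.1%. The steepest was Creb3l1, a membrane-bound transcription factor that drives collagen secretion, with 6.15 to 6.57 in NP cKO and 10.27 to 12.74 in AF cKO, and 5.38 to 5.66 in NP CTR and 10.05 to 11.53 in AF CTR (log2 differences -4.82 and -5.12, adjusted p = 2.6e-07 and 1.0e-07). Of its 8 NP values, 7 lie under the negative control median of their array, so that the size of both differences is uncertain. Creb3l2, its close relative, ran the other way, with 14.09 to 14.98 in NP cKO and 13.06 to 14.17 in AF cKO, and 15.41 to 15.79 in NP CTR and 13.89 to 14.67 in AF CTR (1.12 and 1.40, adjusted p = 0.00383 and 6.98e-04).

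Of 8 partner transcription factors of ATF4, 7 were lower in the NP in cKO and 6 in CTR, and 1 and 2 of them passed. In cKO that is 12.5% called lower, near the 12.6% of all probe sets. In CTR it is 25% against 10.1%, a share that rests on 2 genes. Cebpd, a C/EBP factor, was at 7.73 in NP cKO and 10.58 in AF cKO, and at 7.09 in NP CTR and 10.41 in AF CTR (-2.86 and -3.32), and Cebpb differed by -1.01 in CTR (adjusted p = 0.00711). The amino acid transporters Slc1a4 (-2.86 in cKO, -2.56 in CTR) and Slc38a2 (-1.77 and -1.32) passed in both genotypes, but 7 of 8 NP values of Slc1a4 lie under the negative control medians, and the size of its difference is uncertain. The enzymes Mthfd2 (-1.13, adjusted p = 3.98e-04) and Gpt2 (-0.91, adjusted p = 0.00759) passed in cKO. All 8 NP values of both enzymes lie under those medians, as do 4 and 3 of their 8 AF values, so that these calls are weak evidence of a difference in transcript. Genes that were higher in the NP included Vldlr, a lipoprotein receptor (0.84 in cKO, 0.82 in CTR), Niban1, a stress-induced regulator of translation (1.27 in CTR), Eif4ebp1, a repressor of cap-dependent translation (1.20 in CTR), and Ern2 (0.87 in cKO, 0.67 in CTR) and Fgf21 (0.78 in cKO), both of them at background. None of the 13 eIF2 kinase, phosphatase and subunit genes passed in either genotype. Over all probe sets the shares called were 25.9% in cKO and 20.1% in CTR.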

How the data were processed

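The 16 arrays come from 8 mice. Per the labels, biotin-labelled cDNA was made with the GeneChip WT Plus kit from RNeasy-purified RNA, and the authors normalized the arrays by sst-RMA (robust multi-array averaging after a signal space transformation) and deposited log2 signals. The submitters' processing notes name Transcriptome Analysis Console, with no version. The detection, p and fold filters that the labels name (p under 0.05, fold 1.75) had not been applied to the table. No detection p, scan date or batch was used here. The table holds 28846 probe sets. After leaving out 6640 control probe sets, 22206 were tested, of which 19572 carry 1 symbol in GEO's platform annotation and 2634 none, with symbols checked against RefSeq.

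A model of 4 group means over the 16 arrays, with no covariate, was applied to the deposited log2 values without further normalization (R 4.3.3, lmFit and eBayes of limma 3.58.1), and p-values were adjusted by Benjamini-Hochberg over all 22206 probe sets. The model was tested on simulated data with independent noise. The changes seeded there, in AF cKO, were larger than every genotype difference of the members. That test does not show how the model handles smaller changes. The contrasts were cKO minus CTR in each tissue, the difference of these effects, and NP minus AF in each genotype. The members, gene lists, tests and left-out arrays were chosen with earlier results of these data known. Nupr1 and Stc2 were chosen on AF cKO minus CTR, so that only their NP contrast is read as a test. That NP contrast is not fully independent of the choice, since it shares the mice and the estimate of spread with the AF contrast.

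Named genes of the lists are the 20 of smallest adjusted p among those called and the 3 of smallest p per list in each genotype contrast, and for Nupr1 and Stc2 the 5 genes of highest correlation. NP and AF of 1 animal share a code in the titles, and the labels say that both tissues came from each animal. As a check of that pairing, deviations of both arrays from their groups had r between -0.29 and 0.35, over 0.1 in 3 of 8 animals. Arrays of the same number in cKO and CTR, which are different animals, had r between -0.27 and 0.21, over 0.1 in 4 of 8 pairs. The check thus did not separate paired from unpaired arrays, and the pairing rests on the titles and labels. Alternatives were a filter on dim probe sets (mean over 6.43), arrays centred on their medians, quantile normalization on top of sst-RMA, only 1 probe set for a gene, weights per array, moderation with an intensity trend, fits of 8 arrays of 1 tissue or genotype, blocks for animal or replicate number, the labels' thresholds, the second probe set of Ddit3, and leaving out single arrays or the pairs that carry muscle or osteoclast markers.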

Additional observations from a re-analysis of the deposited data

Results flagged for a closer look

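Sesn2 in NP cKO replicate 2 stood apart from its group: its log2 signal was 5.46, while the other 3 NP cKO arrays lay between 6.04 and 6.14. All of these values lie under the negative control medians, which run from 6.14 to 6.59 over the arrays, or at their lower end. The 10 members in 4 groups gave 40 such checks for a single array far from the others of its group, of which chance flags about 1 in 20, and this was the only one that met the criterion.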

How the results depend on the processing

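No member passed for cKO against CTR in either tissue, or for the difference of both effects, under any alternative run, counting 10 members in the NP and the 8 not chosen in the AF elsewhere. Under the thresholds of the labels (unadjusted p and fold) 3 stress response genes passed in the NP, 2 in the AF and 2 for the difference, against 0 after adjustment. For NP against AF in cKO, 4 members passed, and 2 did with the filter on dim probe sets. That filter removes Chac1 and Sesn2, of which only Chac1 was called in cKO, and Ddit3 lost its call under it (adjusted p = 0.0505 in limma). In cKO, 2 passed without AF cKO replicate 3 and AF CTR replicate 1, and 2 to 5 on leaving out single arrays. In CTR, 4 passed, and 2 did with the dim filter, 2 without the same pair of arrays and 2 to 4 on leaving out single arrays. With the replicate number as a block (replicate block), 2 passed in CTR, with Ddit3 (adjusted p = 0.0561) and Sesn2 (0.0597) losing their calls. The numbers pair NP and AF of 1 animal but not cKO with CTR, and a replicate block for the animal as a random effect (correlation 0.04) changed no count of members. Stress response genes called in CTR numbered 34, against 19 without the same pair of arrays and 20 to 35 on leaving out single arrays. The median of all probe sets for NP minus AF moved with centring to 0.13 in cKO and 0.16 in CTR.

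Small differences, none of them called, changed sign as follows. With centring, Atf4 in the NP was -0.010, and Trib3 in the difference of effects 0.0087. With the second quantile normalization, Ddit3 (-0.065) and Trib3 (0.066) in the difference of effects and Hspa5 in the AF (-0.15) turned. Without AF cKO replicates 2 and 4, Sesn2 in the AF was -0.028, and in the difference of effects Ddit3 was -0.095, Chac1 -0.038 and Hspa5 0.011. Without AF cKO replicate 3 and AF CTR replicate 1, Chac1 (-0.098) and Xbp1 (-0.00497) in the AF, Chac1 in the difference of effects (-0.20) and Sesn2 for NP minus AF in cKO (-0.074) turned. The second Ddit3 probe set gave -0.23 in the difference of effects. On leaving out single arrays, the NP values ran from -0.20 to 0.14 for Atf4 and -0.15 to 0.16 for Asns. The AF values ran from -0.012 to 0.25 for Chac1, -0.25 to 0.047 for Asns, -0.11 to 0.31 for Hspa5 and -0.071 to 0.42 for Xbp1. The differences of effects ran from -0.21 to 0.30 for Ddit3, -0.18 to 0.028 for Trib3, -0.11 to 0.15 for Chac1, -0.28 to 0.062 for Asns and -0.39 to 0.026 for Hspa5, and for NP minus AF in cKO from -0.074 to 0.24 for Sesn2 and -0.089 (without NP cKO replicate 3) to 0.36 for Stc2. The causes were not tested. Signal close to background limits what Trib3, Chac1 and Sesn2 can show.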
